A study of Mus musculus with 28 samples.

Results

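Brown fat was compared with subcutaneous white fat in obese control mice, using 6 of the 28 libraries of a study of Fgf13, a non-secreted member of the fibroblast growth factor family, in adipose tissue. The 6 libraries are the control columns of the brown fat set (3 libraries) and of the subcutaneous white fat set (3 libraries), both deposited as part of the constitutive knockout arm. The genotype of both groups is labelled WT, both came from mice kept on a high fat diet for 20 weeks, and neither is labelled as carrying an adipose deletion of Fgf13. The sources used here give no age, strain or knockout promoter for these mice. Whether the libraries are separate animals, and whether the depots share animals, is not in the labels, so each p-value measures the spread between these samples, which may be technical. Of 55891 Ensembl identifiers, 13693 had at least 1 CPM (reads scaled to the same library total) in at least 3 of the 6 libraries and were tested, and 13678 of these were not mitochondrially encoded. The columns of each depot were deposited in their own table, so depot, table and any sequencing batch cannot be told apart.

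Brown fat is a heat-producing tissue. Its adipocytes hold many lipid droplets and many mitochondria, and uncoupling protein 1 (Ucp1) lets protons back across the inner mitochondrial membrane without making ATP, so that the energy of fatty acid and glucose oxidation is released as heat. Noradrenaline switches this on through beta-adrenergic receptors and cyclic AMP. Subcutaneous white fat stores triglyceride in large single droplets and secretes hormones such as leptin and adiponectin; on a high fat diet it expands, and brown fat itself takes up lipid and comes to look more like white fat.

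Depth ran from 15948166 to 21246286 reads in brown fat and from 13490948 to 21241811 reads in white fat, so that 1 read was worth 0.0471 to 0.0741 CPM. Genes of the mitochondrial genome took 31.6%, 35.8% and 27.7% of the reads in brown fat and 5.63%, 5.48% and 5.56% in white fat. The means were 31.7% ± 4.04 and 5.56% ± 0.0726 (SD, n = 3 each), the groups did not overlap, and the difference was 26.2 percentage points (exact two-sided permutation test, p = 0.1, the smallest that 3 against 3 allows). Since CPM values of a library share a fixed total, this share lowers every other gene of brown fat: scaling to the reads of nuclear genes alone (nuclear CPM) raised log2 changes by about 0.47. The white fat libraries correlated with each other at 0.989 to 0.990 (Pearson, log2 CPM across genes, which are not independent replicates) and the brown fat libraries at 0.967 to 0.983. Brown fat replicate 3 was nearest to white fat, at 0.911 to 0.920, and replicate 2 farthest, at 0.850 to 0.863.

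Of the 13693 genes, 10953 (80.0%) passed an adjusted p of 0.05 with the CPM as deposited, 1424 higher (10.4%) and 9529 lower (69.6%) in brown fat. With nuclear CPM, 8158 passed (59.6%), 2612 higher (19.1%) and 5546 lower (40.5%), and with nuclear CPM rescaled by the trimmed mean of M-values (TMM), 7278 passed (53.2%), 3587 higher (26.2%) and 3691 lower (27.0%). Of the genes lower with the deposited values, 569 passed in the opposite direction after TMM scaling. The median log2 change over all genes was -0.65 as deposited, -0.23 with nuclear CPM and -0.04 with TMM. A gene is therefore called higher or lower below only where it passed in the same direction under all 3 scalings, a rule chosen after the data were seen, and mitochondrially encoded genes were judged on the deposited values alone. By this rule 1424 genes (10.4%) were higher and 3691 (27.0%) lower in brown fat, and 1030 (7.52%) and 1592 (11.6%) of them by at least 2-fold in nuclear CPM. The higher genes are all those higher as deposited, and the lower genes all those lower with nuclear CPM and TMM. The imbalance of 10.4% and 27.0%, used below as the shares of all genes, thus comes with the rule, since TMM gave 26.2% and 27.0%. Unless said otherwise, log2 changes are brown minus white on the log2(CPM + 1) scale as deposited, which understates the change of low genes, with the standard error (SE) and adjusted p of limma.

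**Figure D1:**
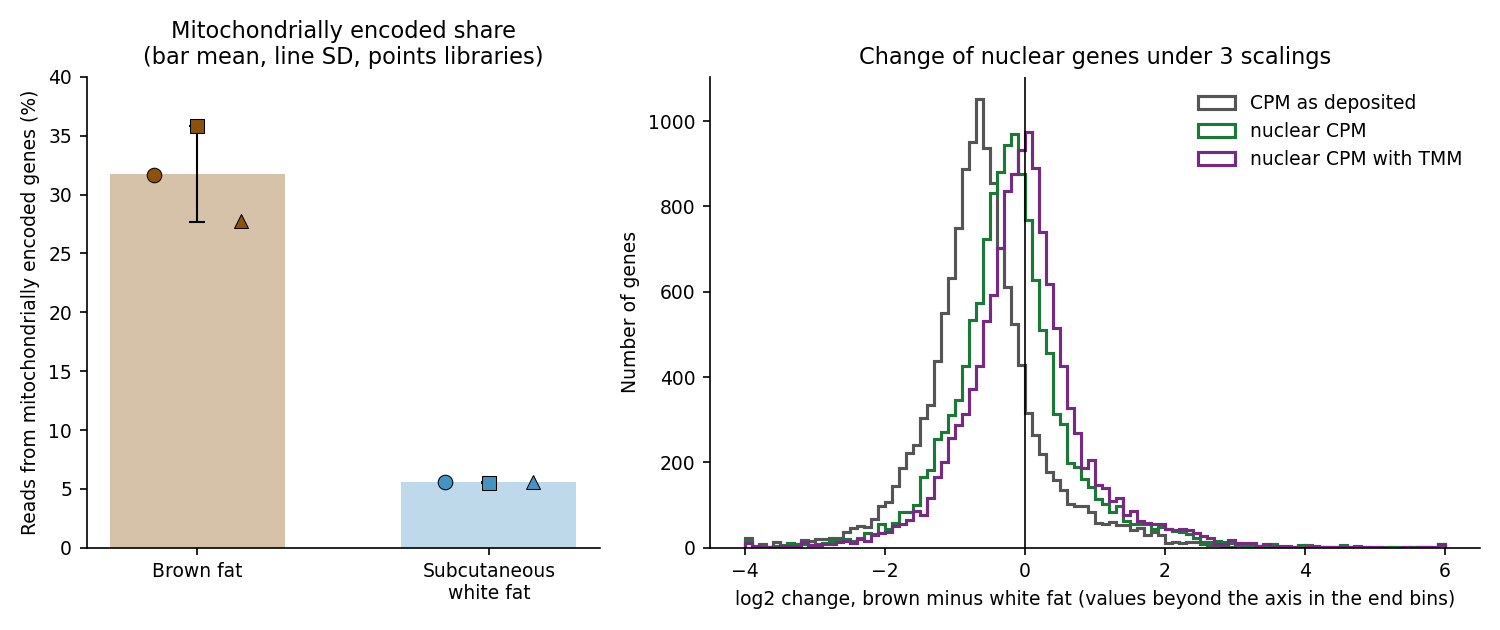
Left, the percentage of reads from mitochondrially encoded genes in each library, where bars are means, lines SD (n = 3) and points libraries (circle, square and triangle for replicates 1, 2 and 3). Right, the number of nuclear genes at each log2 change, brown minus white fat, under the 3 scalings, whose medians lie at -0.65, -0.23 and -0.04.

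The thermogenic program had the highest median change in nuclear CPM of the lists described here. Of 30 genes of brown identity and heat production, 29 were kept by the filter, 25 of these were higher in brown fat and none was lower (2 were lower without brown replicate 3). Among all genes, 10.4% were higher and 27.0% lower. Members such as Zic1 and Aspg were under 1 CPM in every white library. They passed the filter only through brown fat, which fixed their direction. The median log2 change of the 29 was 2.54 with CPM as deposited and 3.01 with nuclear CPM. In bulk tissue, fewer cells of a type and less RNA per cell cannot be told apart, here and for every gene below.

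Ucp1 was measured at 5692, 7238 and 5048 CPM in brown fat against 4.99, 5.34 and 2.14 CPM in white fat. Its mean was 1442-fold higher in brown fat (log2 change 10.23 ± 0.30 (SE), adjusted p = 9.1e-06). Cidea, a lipid droplet protein typical of brown adipocytes, was at 1152, 1399.5 and 1099 CPM in brown fat against 12.2, 25.4 and 17 CPM in white fat. Dio2, the deiodinase that makes active thyroid hormone inside the cell, was at 59.3, 93.2 and 46.9 CPM in brown fat against 3.44, 3.71 and 1.9 CPM in white fat. In all 3 genes brown fat replicate 2 was the highest brown library and replicate 3 the lowest, and no white library came near either. Elovl3, an enzyme of very long chain fatty acid synthesis, showed the same order, with 45.4, 56.7 and 27.6 CPM in brown fat and 4.52, 1.85 and 2.63 CPM in white fat. Letmd1, a mitochondrial protein needed for heat production, was at 614, 694 and 516 CPM in brown fat against 43.8, 46 and 43.5 CPM in white fat. Gk, glycerol kinase, which lets adipocytes reuse glycerol, was at 103, 182 and 114 CPM in brown fat against 24.5, 23.2 and 21.7 CPM in white fat.

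Most regulators of this program were also higher in brown fat. Ppargc1a, the coactivator that drives mitochondrial biogenesis, was at 26.1, 34.8 and 26.7 CPM in brown fat against 4, 6.52 and 4.53 CPM in white fat (log2 change 2.34 ± 0.19 (SE), adjusted p = 7.6e-05). Its relative Ppargc1b changed by 2.59 ± 0.19, and the nuclear receptors they serve by 3.42 ± 0.22 (Ppara), 1.40 ± 0.08 (Esrra) and 0.91 ± 0.16 (Esrrg). Ebf2, a transcription factor that marks brown precursors, was at 44.5, 57.4 and 45.3 CPM in brown fat against 14.5, 18.3 and 19.4 CPM in white fat. Prdm16, a co-regulator known for its role in brown fat fate, did not follow: it was at 18.2, 16.4 and 18 CPM in brown fat against 20.3, 24.5 and 24.7 CPM in white fat, lower with the deposited values (log2 change -0.38) but at 0.07 with nuclear CPM, where it did not pass. Fgf21, a hormone that brown fat can release, was close to the 1 CPM filter in both depots (1.15 to 1.51 CPM in brown and 1.71 to 2.45 CPM in white fat) and did not pass either. The other 2 members that did not pass under all 3 scalings were Lhx8 (-0.98, lower with the deposited values) and Eya1 (-0.49), a pair of developmental transcription factors.

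The signalling chain upstream was higher in part: of 19 genes of adrenergic and thyroid signalling, 8 were higher and 1 was lower (2 without brown replicate 2). Of all genes, 10.4% were higher and 27.0% lower. Adrb3, the main beta-adrenergic receptor of rodent fat, was at 236, 228 and 229.7 CPM in brown fat against 25.9, 58.2 and 39 CPM in white fat, with more spread among the white than among the brown libraries. Adrb1, the receptor used by brown precursors, was at 13.2, 16.1 and 16.1 CPM in brown fat against 4.24, 3.85 and 3.67 CPM in white fat. Gnas, which encodes the stimulatory G protein that couples these receptors to cyclic AMP, was at 2792, 3091 and 2290.1 CPM in brown fat against 916, 893 and 869 CPM in white fat (log2 change 1.60 ± 0.13 (SE), adjusted p = 9.1e-05). The gene that went the other way was Adcy5, an adenylyl cyclase, at 22.6, 6.83 and 40.5 CPM in brown fat against 271, 258 and 278 CPM in white fat (log2 change -3.78 ± 0.58 (SE), adjusted p = 0.0015). Its brown libraries differed widely among themselves, replicate 3 being the highest, and all lay far below white fat. Adcy6, a further cyclase, was lower with the deposited values (-0.92) but did not pass under all 3 scalings.

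Other routes that can produce heat were not uniformly higher. Ckb, the creatine kinase of the creatine cycle, was at 53.9, 43.2 and 66.9 CPM in brown fat against 71.3, 68.6 and 57.6 CPM in white fat and the groups overlapped. Ucp3 was higher in brown fat (57.1, 64.1 and 60.4 CPM in brown fat against 29, 39.9 and 29.4 CPM in white fat), whereas Ucp2, found in many cell types, was at 162, 63.1 and 197 CPM in brown fat against 428, 329.8 and 374 CPM in white fat and did not pass under all 3 scalings. Of 9 genes of creatine and calcium cycling that were kept, 2 were higher and 2 lower, and none was lower without any white library. The shares of all genes were 10.4% higher and 27.0% lower. Kcnk3, a potassium channel, and Otop1, a proton channel, both markers of brown adipocytes, changed by 0.43 ± 0.11 and 2.20 ± 0.14.

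**Figure D2:**
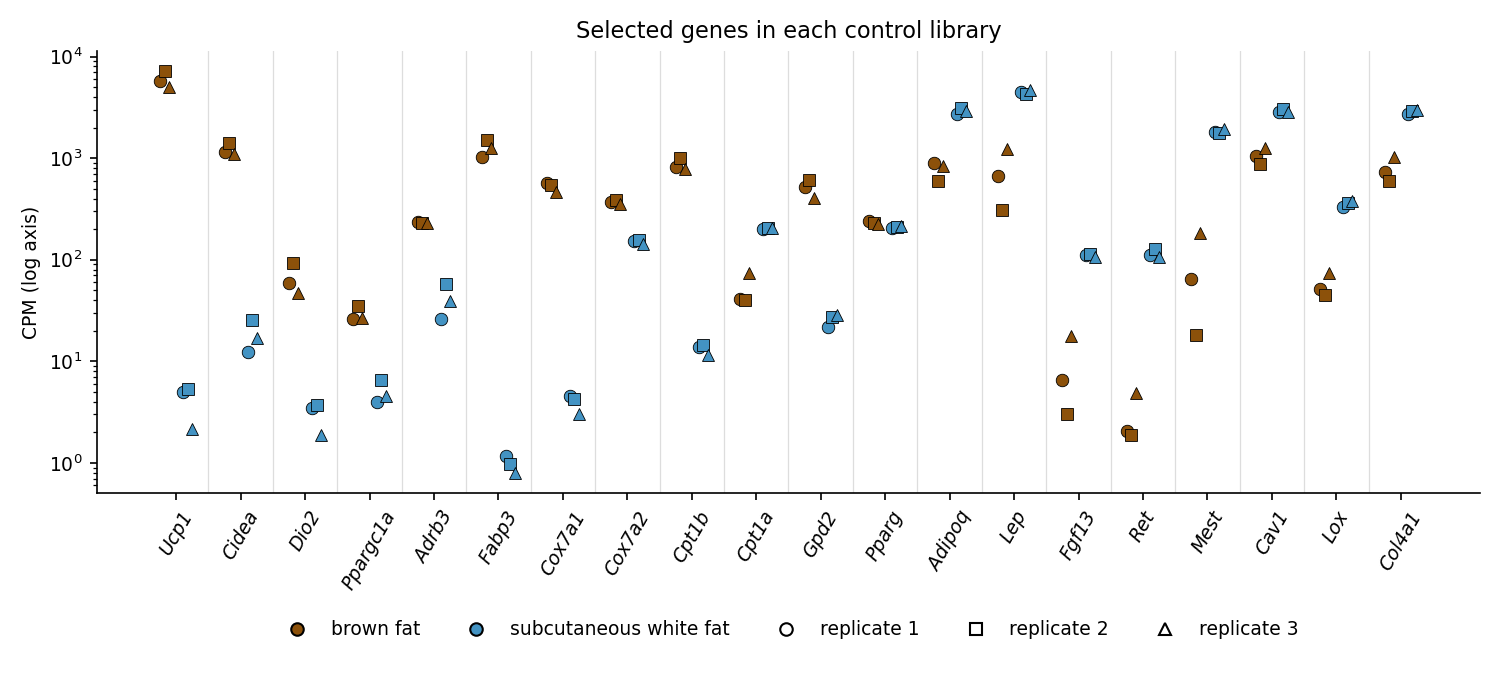
CPM (log axis) of 20 selected genes in each control library, brown fat in brown and subcutaneous white fat in blue, with the replicate shown by the symbol. Ucp1, Fabp3 and Cox7a1 separate the depots most widely, and from Adipoq to Col4a1 the white libraries are the higher ones. Pparg hardly separates the depots in these values as deposited (log2 change 0.15, against 0.62 with nuclear CPM).

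The respiratory chain was higher in brown fat almost without exception. All 36 kept subunits and factors of complex I, all 4 of complex II and all 10 of complex III were higher, as were 14 of 15 of complex IV and 13 of 17 of complex V. These shares stand against 10.4% of all genes. Median log2 changes in nuclear CPM were 2.09, 2.34, 2.35, 1.95 and 1.73 for complexes I to V. Within complex I the range was 0.85 to 2.89.

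Ndufv1, which carries the NADH-binding site of complex I, was at 911, 1017 and 949.8 CPM in brown fat against 187, 182 and 165 CPM in white fat (log2 change 2.42 ± 0.10 (SE), adjusted p = 8.2e-06). Sdhb, the iron-sulfur subunit of complex II, was at 900.4, 914 and 744 CPM in brown fat against 141, 150.1 and 132 CPM in white fat. Uqcrfs1, the Rieske iron-sulfur protein of complex III, was at 739.8, 768 and 635 CPM in brown fat against 141, 158 and 148 CPM in white fat. In each of these genes the 3 brown libraries lay close together and far above every white library. Atp5b, the catalytic beta subunit of ATP synthase, was at 5884, 6650.5 and 5806 CPM in brown fat against 1633, 1674 and 1510.2 CPM in white fat (log2 change 1.93 ± 0.12 (SE), adjusted p = 3.1e-05).

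ATP synthase held the exceptions. The c-ring of its membrane motor is encoded by 3 genes that make the same mature protein. Atp5g1 was at 23.3, 14.3 and 25.4 CPM in brown fat against 60.6, 57.1 and 59.3 CPM in white fat and Atp5g3 at 188, 175 and 217 CPM in brown fat against 428, 401 and 380.5 CPM in white fat, and both were lower in brown fat (log2 changes -1.49 ± 0.20 and -1.06 ± 0.11). Atp5g2 was higher, at 134, 138 and 141 CPM in brown fat against 105, 96.2 and 107 CPM in white fat (0.42 ± 0.08), well under the 1.93 ± 0.12 of Atp5b. Atpif1, the inhibitor of ATP synthase, was lower with the deposited values but did not pass under all 3 scalings, and neither did Atp5j. Atp5g2 differed between the deposited tables as well: in a further set of control subcutaneous white fat its mean was 12.9 CPM, further below brown fat than in the set compared here, so the size of its change depends on the white fat set.

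All 13 proteins encoded by the mitochondrial genome were higher in brown fat, against 10.4% of all genes, with a median log2 change of 2.39 on the deposited scale. mt-Co1, a catalytic subunit of complex IV, was at 70598, 85137 and 68508 CPM in brown fat against 15739, 14211 and 15036 CPM in white fat (log2 change 2.31 ± 0.15 (SE), adjusted p = 3.9e-05). The smallest change was that of mt-Nd5 (2.00 ± 0.14) and the largest that of mt-Nd6 (4.19 ± 0.18), the subunit encoded on the other strand. mt-Nd6 was at 71.9, 98.7 and 115 CPM in brown fat against 3.91, 3.85 and 4.77 CPM in white fat, and of the 13 it was the only gene whose highest brown library was replicate 3. mt-Atp8 was at 3514, 4704 and 3229 CPM in brown fat against 842, 799 and 759 CPM in white fat, but averaged 159 CPM in the further subcutaneous set, a difference within 1 depot. Nuclear genes that share sequence with the mitochondrial genome, 11 in all, took 2.56% to 2.92% of brown reads and 0.475% to 0.858% of white reads, and reads of either source may have been counted there.

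Respiratory complexes I to V give a view of sequence as well. The 250 bases before the annotated gene start (RefSeq, GRCm38.p6) were searched on both strands for exact letters of 6 motifs in the 69 promoters of the 65 matched genes among the 77 subunits that were higher. These motifs were the NRF1 palindrome (GCGC, AT and GCGC in a row), the cyclic AMP response element TGACGTCA (CRE), the ETS motif CCGGAAGT bound by GABPA, the ERR motif TCAAGGTCA, the direct repeat DR1 (AGGTCA, any base and AGGTCA in a row), and TATAAA. The NRF1 letters were in 4 promoters (5.80%, against 1.52% of the 13309 promoters of genes tested) and the CRE in 5 (7.25% against 2.37%). The GABPA letters were in 3 (4.35% against 5.52%) and TATAAA in 7 (10.1% against 6.67%), and the ERR and DR1 letters were in none. These shares are a description of few promoters, and a match of letters is not a measured binding site. The CRE letters were in Ndufa10, Ndufb2, Cycs, Uqcrfs1 and Ndufa11, and the NRF1 letters in Atp5k, Cox6a1, Atp5g2 and Ndufa11.

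The promoters of 6 genes are printed 5′ to 3′ on the strand of the gene, with motif letters in capitals: the thermogenic genes Ucp1 and Dio2, a complex III and a complex V subunit that moved with their complexes, and the paired complex IV subunits Cox7a1 and Cox7a2, which are described next. The Ucp1 promoter lies at chr8:83290098-83290347 on the plus strand, that of Dio2 at chr12:90739039-90739288 on the minus strand, that of Uqcrfs1 at chr13:30545317-30545566 on the minus strand, that of Atp5k at chr5:108434400-108434649 on the minus strand, that of Cox7a1 at chr7:30183921-30184170 on the plus strand and that of Cox7a2 at chr9:79759854-79760103 on the minus strand.
Ucp1: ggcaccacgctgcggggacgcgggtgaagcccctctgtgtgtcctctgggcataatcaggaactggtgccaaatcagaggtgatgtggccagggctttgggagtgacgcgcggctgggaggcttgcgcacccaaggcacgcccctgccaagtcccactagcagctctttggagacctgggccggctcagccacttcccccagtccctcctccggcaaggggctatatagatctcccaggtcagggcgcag
Dio2: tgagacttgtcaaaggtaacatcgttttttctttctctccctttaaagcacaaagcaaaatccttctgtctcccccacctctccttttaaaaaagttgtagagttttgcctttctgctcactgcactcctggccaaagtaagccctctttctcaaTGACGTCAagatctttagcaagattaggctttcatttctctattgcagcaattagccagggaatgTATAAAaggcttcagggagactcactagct
Uqcrfs1: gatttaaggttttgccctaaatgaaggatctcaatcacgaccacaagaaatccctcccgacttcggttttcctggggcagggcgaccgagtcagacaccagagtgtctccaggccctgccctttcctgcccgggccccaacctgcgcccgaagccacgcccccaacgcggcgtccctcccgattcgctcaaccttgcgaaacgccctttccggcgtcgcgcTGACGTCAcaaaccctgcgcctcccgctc
Atp5k: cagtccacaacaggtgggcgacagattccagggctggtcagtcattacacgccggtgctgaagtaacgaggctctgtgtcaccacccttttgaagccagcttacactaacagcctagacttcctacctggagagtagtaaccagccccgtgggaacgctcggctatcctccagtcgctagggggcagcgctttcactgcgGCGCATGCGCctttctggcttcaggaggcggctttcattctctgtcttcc
Cox7a1: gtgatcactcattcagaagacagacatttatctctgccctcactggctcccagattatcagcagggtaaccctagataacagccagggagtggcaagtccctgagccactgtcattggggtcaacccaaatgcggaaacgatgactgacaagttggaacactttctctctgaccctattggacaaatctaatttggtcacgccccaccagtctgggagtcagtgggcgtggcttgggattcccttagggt
Cox7a2: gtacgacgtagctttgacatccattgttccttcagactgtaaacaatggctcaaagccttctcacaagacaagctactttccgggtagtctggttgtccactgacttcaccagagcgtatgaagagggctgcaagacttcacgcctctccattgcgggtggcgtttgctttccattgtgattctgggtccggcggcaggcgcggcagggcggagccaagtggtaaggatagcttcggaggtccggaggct
The capitals mark the CRE and then TATAAA in Dio2, the CRE in Uqcrfs1 and the NRF1 palindrome in Atp5k. The windows of Ucp1, Cox7a1 and Cox7a2 held none of the 6. The Dio2 window was 41.6% G or C with 2 CpG dinucleotides, and that of Uqcrfs1 62.4% with 23. Cox7a1, the brown-high isoform, had 4 CpG in its window and Cox7a2 14.

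Complex IV subunits that exist as tissue-specific pairs split widely. Cox7a1, the isoform of heart, muscle and brown fat, was at 566, 548 and 460.1 CPM in brown fat against 4.52, 4.3 and 3.06 CPM in white fat (log2 change 6.74 ± 0.14 (SE), adjusted p = 7.9e-07). Its widely expressed partner Cox7a2 was at 372, 387 and 353 CPM in brown fat against 154, 155 and 142 CPM in white fat (1.29 ± 0.09). Cox8b was at 970.0, 991 and 864 CPM in brown fat against 15.4, 19.3 and 15.8 CPM in white fat (log2 change 5.73 ± 0.11 (SE), adjusted p = 7.4e-07) and Cox8a at 657, 507 and 531 CPM in brown fat against 308, 309 and 288 CPM in white fat (0.90 ± 0.12). Both members of each pair were thus higher in brown fat, with ratios of the means of 133 and 55.8 for the tissue-specific subunits and 2.46 and 1.88 for the common ones. In the Cox4 pair the common subunit Cox4i1 was higher (1.48 ± 0.10), and Cox4i2, the form tied to low oxygen, was at 6.31, 4.14 and 7.34 CPM in brown fat against 9.89, 10 and 9.42 CPM in white fat and was the 1 kept complex IV gene that did not pass under all 3 scalings.

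Pairs outside the chain did not move together. Cpt1b, the muscle and brown fat form of the enzyme that admits fatty acids to mitochondria, was at 824, 1003 and 790.2 CPM in brown fat against 13.9, 14.5 and 11.4 CPM in white fat. Cpt1a, the liver form, was at 41, 39.9 and 74.8 CPM in brown fat against 201, 205 and 207 CPM in white fat, lower in brown fat (log2 change -2.02 ± 0.24 (SE), adjusted p = 0.0004), with brown replicate 3 the highest of its group. Fabp3, the heart-type fatty acid binding protein, was at 1023, 1494 and 1254 CPM in brown fat against 1.18, 0.964 and 0.796 CPM in white fat (log2 change 9.30 ± 0.15 (SE), adjusted p = 3.3e-07). Fabp4, the adipocyte form, was at 6638, 5710.2 and 6760.4 CPM in brown fat against 13047, 11284 and 12359 CPM in white fat and did not pass under all 3 scalings. Plin5, the perilipin that tethers droplets to mitochondria, was at 308, 303 and 302 CPM in brown fat against 29.4, 48.2 and 29.8 CPM in white fat, while Plin1, the main droplet coat of adipocytes, was at 1310.2, 1094 and 1211 CPM in brown fat against 1613, 1927 and 1748 CPM in white fat and its change with nuclear CPM was -0.08. Of the adenine nucleotide carriers, Slc25a4 was higher (0.47 ± 0.09) and Slc25a5 was not (-0.02 ± 0.09).

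Several of these brown-high genes are also high in skeletal muscle, and muscle RNA was present in part of the brown fat. The 26 muscle markers summed to 648, 1819 and 70.6 CPM in the brown libraries and 85.5, 78.1 and 73.9 CPM in the white ones. All 26 were at or over 1 CPM in brown replicates 1 and 2, against 6 in replicate 3, where 5 were at 0. In brown replicates 1, 2 and 3, Cox7a1 was at 566, 548 and 460.1 CPM and Cox8b at 970.0, 991 and 864 CPM. Cpt1b was at 824, 1003 and 790.2 CPM and Fabp3 at 1023, 1494 and 1254 CPM in the same order. The part of muscle RNA in the levels of these genes was not tested. Mb, myoglobin, was at 31.1, 86.2 and 10.9 CPM in brown fat against 0.33, 0.148 and 0.0612 CPM in white fat. Perm1, a regulator of oxidative metabolism in muscle, was at 40.6, 71.2 and 46.4 CPM in brown fat against 0.0942, 0.0741 and 0.122 CPM in white fat. Mb and Perm1 were under 1 CPM in every white library and passed the filter only through brown fat, which fixed their direction. Of the 9 muscle markers kept, 2 (Mb and Myl1) were higher in brown fat, 9 were without brown replicate 3, and 1 was without brown replicate 1 or any white library. Among all genes, 10.4% were higher.

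The oxidation pathways that feed the chain were higher as blocks. All 14 genes of the citric acid cycle were higher, against 10.4% of all genes. Their median log2 change was 2.15 with CPM as deposited and 2.62 with nuclear CPM. Idh3b, Idh3g and Suclg1, subunits of enzymes of the cycle, changed by 2.66 ± 0.11, 2.50 ± 0.10 and 2.89 ± 0.11. Of 23 genes of fatty acid oxidation, 22 were higher, against the same 10.4% of all genes, Cpt1a being the exception. Acadvl, which starts the oxidation of very long chains, was at 2663, 2845 and 2433 CPM in brown fat against 244, 271 and 243 CPM in white fat, and Acaa2, the last thiolase step, at 2408, 2317 and 2064 CPM in brown fat against 197, 211 and 179 CPM in white fat (log2 change 3.53 ± 0.11 (SE), adjusted p = 3.8e-06). Neither gene had overlapping groups.

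Other mitochondrial genes were higher more moderately. The counts that follow stand against 10.4% of all genes higher and 27.0% lower. For biogenesis and coenzyme Q, 14 of 19 were higher and none lower. Coq8a, needed for coenzyme Q synthesis, was at 524, 691 and 560.0 CPM in brown fat against 30.5, 27 and 28.6 CPM in white fat (log2 change 4.31 ± 0.12 (SE), adjusted p = 3.1e-06), the widest of that list, followed by Coq10a (2.72 ± 0.10). For mitochondrial dynamics and chaperones, 14 of 17 were higher, among them Chchd10 (3.46 ± 0.14) and Immt, an organiser of cristae (1.34 ± 0.10). Of 75 mitochondrial ribosomal proteins, 48 were higher and 1 was lower (0 without any white library), with a median of 0.42 with CPM as deposited and 0.88 with nuclear CPM; the strongest was Mrps36, at 96.4, 102 and 85.8 CPM in brown fat against 16.6, 17.9 and 14.3 CPM in white fat, a protein also known as a component of the 2-oxoglutarate dehydrogenase complex. The 72 cytosolic ribosomal proteins gave 0 higher and 3 lower (1 without brown replicate 1 or 2, and 0 without white replicate 1 or 3), with a median of -0.71 with CPM as deposited and -0.24 with nuclear CPM, near that of all genes.

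Carriers of the inner membrane went both ways: 14 of 39 were higher and 5 lower, against 10.4% and 27.0% of all genes. Slc25a42, which imports coenzyme A, was at 257, 310.2 and 259 CPM in brown fat against 24.9, 23.6 and 21.8 CPM in white fat. Slc25a34 and Slc25a48, relatives with less settled substrates, were near 1 CPM in white fat and at 67.2, 90.2 and 79.5 and 33.1, 43.2 and 27.6 CPM in brown fat. Slc25a10, the dicarboxylate carrier that supplies lipid synthesis, was at 67.1, 16.2 and 95.8 CPM in brown fat against 548, 571 and 501 CPM in white fat (log2 change -3.48 ± 0.63 (SE), adjusted p = 0.0028). Its lowest brown library was replicate 2 and its highest replicate 3, as for Adcy5. In the catabolism of branched-chain amino acids, 14 of 22 genes were higher, including Bckdha (1.70 ± 0.09) and Bckdhb (1.13 ± 0.09), subunits of the committed dehydrogenase, and Mcee (1.55 ± 0.09). Bcat1, the cytosolic aminotransferase, was lower, at 13.7, 4.33 and 10.4 CPM in brown fat against 50.8, 61.5 and 51.8 CPM in white fat. Among 16 genes of antioxidant defence, 7 were higher and 3 lower; the mitochondrial Prdx3 and Txnrd2 changed by 1.55 ± 0.11 and 1.72 ± 0.10, and the secreted Gpx3 was at 697, 878 and 864 CPM in brown fat against 121, 193 and 153 CPM in white fat.

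Genes of glucose use were higher in brown fat as well. Of 29 genes of glucose uptake and glycolysis, 22 were higher and 1 was lower, against 10.4% and 27.0% of all genes. Their median was 1.02 with CPM as deposited and 1.49 with nuclear CPM. Pdk4, the kinase that shuts pyruvate out of oxidation when fat is burned, was at 853, 1439.5 and 1198 CPM in brown fat against 99.4, 108 and 99.6 CPM in white fat (log2 change 3.46 ± 0.18 (SE), adjusted p = 2.3e-05), and Pdk2 changed by 1.95 ± 0.11. Ldhb, the lactate dehydrogenase subunit of oxidative tissues, was at 505, 524 and 459 CPM in brown fat against 56.9, 52.3 and 54 CPM in white fat. Pfkl, a phosphofructokinase, changed by 2.23 ± 0.13. Slc2a4, the insulin-regulated glucose transporter, was higher by less (0.65 ± 0.16), with brown replicate 3 at the level nearest to white fat (266, 218 and 178 against 123, 155 and 139 CPM). Pfkfb3, which makes the activator of phosphofructokinase, was the exception, at 314, 300.0 and 354 CPM in brown fat against 955, 1062 and 1016 CPM in white fat.

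Fat synthesis was divided. Of 18 lipogenic genes, 8 were higher and 3 lower (Scd2, Me1 and Insig1), and of 14 genes of triglyceride synthesis 7 were higher and 2 lower (1 without any brown library or white replicate 2). Among all genes, 10.4% were higher and 27.0% lower. Acacb, the mitochondrial acetyl-CoA carboxylase, was at 305, 365 and 275 CPM in brown fat against 52.3, 54.2 and 46.4 CPM in white fat and Elovl6, a fatty acid elongase, at 198, 195 and 122 CPM in brown fat against 19.7, 26.4 and 26.1 CPM in white fat. Gpd2, the mitochondrial glycerol phosphate dehydrogenase that passes electrons from glycolysis to the chain, was at 520.5, 616 and 409 CPM in brown fat against 21.7, 27.4 and 28.3 CPM in white fat (log2 change 4.26 ± 0.17 (SE), adjusted p = 9.6e-06). Gpam, the mitochondrial first acyltransferase, was higher (1.18 ± 0.14), and Gpat3, its counterpart in the endoplasmic reticulum, was lower (-1.73 ± 0.09), at 36.9, 30.9 and 35.8 CPM in brown fat against 116, 119.8 and 113 CPM in white fat. Me1, a cytosolic source of NADPH, was at 364, 279 and 356 CPM in brown fat against 975, 1001 and 932 CPM in white fat.

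Genes of adipocyte identity and fat storage went both ways. Pparg, the nuclear receptor of adipocyte differentiation, was at 243, 232 and 227 CPM in brown fat against 207, 209 and 216 CPM in white fat (log2 change 0.15 ± 0.08 (SE), adjusted p = 0.12), and 0.62 with nuclear CPM. Its partner Rxra was lower in brown fat (-1.44 ± 0.14), as were Ebf1 (-0.91 ± 0.10) and Zfp423, a factor known to restrain the brown program in white adipocytes (-1.73 ± 0.21). Ebf1 did not pass without brown replicate 1 or 3 or white replicate 2 or 3. Cebpb was higher, at 63.4, 44.5 and 50.4 CPM in brown fat against 25.6, 24.3 and 23.6 CPM in white fat. Of the 14 adipogenic factors 1 was higher and 4 lower (2 without brown replicate 3), near the 10.4% and 27.0% of all genes. Of 16 genes of fatty acid uptake and binding, 2 were higher (Fabp3 and Lmf1) and 6 lower. Of 16 genes of lipolysis and the lipid droplet, 3 were higher (Pnpla2, Plin3 and Plin5) and 5 lower. In each of these lists 8 genes did not pass under all 3 scalings. Lpl, which frees fatty acids from lipoproteins, was at 2894, 2598 and 3912 CPM in brown fat against 11356, 11392 and 10374 CPM in white fat, and the fatty acid transporters Cd36 and Slc27a1 changed by -1.26 ± 0.13 and -1.72 ± 0.12. Cidec, a coat protein of large droplets, was at 910.5, 829 and 1116 CPM in brown fat against 3788, 3568 and 3418 CPM in white fat, so that the related Cidea and Cidec went in opposite directions. Plin4, a further coat protein, was at 682, 409 and 777 CPM in brown fat against 4014, 4482 and 4296 CPM in white fat.

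**Figure D3:**
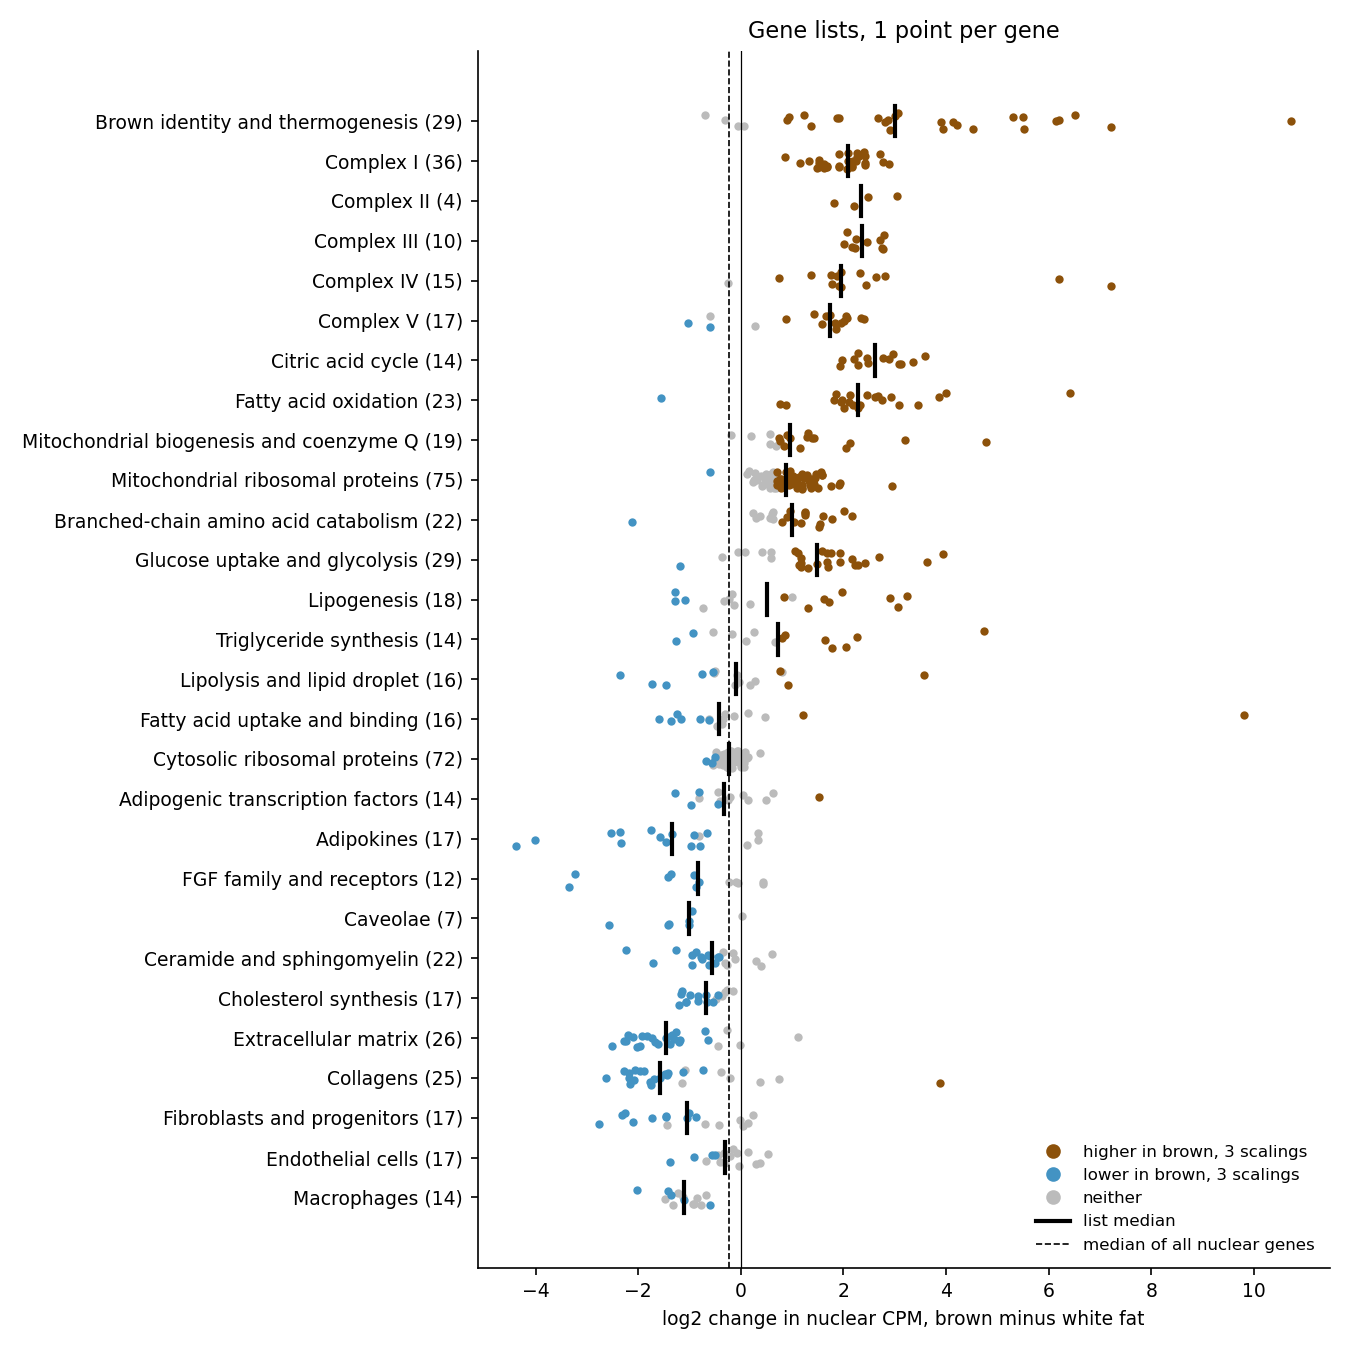
Each point is a gene of the named list (number of genes in brackets), placed by its log2 change in nuclear CPM, brown minus white fat, and coloured where it passed in 1 direction under all 3 scalings. Respiratory complexes, citric acid cycle and fatty acid oxidation sit to the right of the dashed median of all nuclear genes (-0.23), and adipokines, extracellular matrix and collagens to the left.

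Of 17 adipokines and related secreted products, 13 were lower in brown fat and none was higher, against 27.0% of all genes lower, with a median of -1.79 with CPM as deposited and -1.35 with nuclear CPM. Lep, leptin, was at 660.5, 309 and 1230.4 CPM in brown fat against 4493, 4242 and 4646 CPM in white fat (log2 change -2.82 ± 0.48 (SE), adjusted p = 0.0022). Brown replicate 3 had the highest leptin level of its group and replicate 2 the lowest, and all 3 were far below the lowest white library. Adipoq, adiponectin, was at 897, 599.9 and 835 CPM in brown fat against 2749, 3136 and 2909.8 CPM in white fat (log2 change -1.93 ± 0.17 (SE), adjusted p = 9.9e-05), and Retn, resistin, at 33.2, 11 and 44 CPM in brown fat against 667, 586 and 507 CPM in white fat (log2 change -4.47 ± 0.49 (SE), adjusted p = 0.0004). Apln, Itih5 and Angptl2, further secreted products, changed by -1.79 ± 0.18, -2.22 ± 0.20 and -1.44 ± 0.16. The count of 13 ranged from 9 to 13 when each library in turn was left out.

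Fgf13, the gene the study deletes, was itself higher in white fat among these controls. It was at 6.59, 3.01 and 17.6 CPM in brown fat against 110.1, 113 and 106 CPM in white fat (log2 change -3.74 ± 0.53 (SE), adjusted p = 0.0011), and its brown level differed between libraries, replicate 3 being the highest and replicate 2 the lowest. In the libraries labelled as Fgf13 knockouts the mean was 1.06 CPM in brown fat (2 libraries) and 63.2 CPM in subcutaneous white fat (3 libraries). Each was below the mean of the control set compared here for that depot. The further control set of subcutaneous fat, at 60.3 CPM, lay below the white knockout mean. Of 12 kept genes of the FGF family and its receptors, 7 were lower in brown fat and none was higher, against 27.0% of all genes lower. The count of 7 ranged from 5 to 7 when each library in turn was left out. Fgf10, a growth factor for fat precursors, was at 5.7, 2.26 and 9.02 CPM in brown fat against 54.8, 84.6 and 82 CPM in white fat, and Fgf2 at 4.66, 3.2 and 6.03 CPM in brown fat against 16.9, 20.9 and 17.4 CPM in white fat. Among the receptors, Fgfr1 changed by -1.27 ± 0.12 and its co-receptor Klb, needed for the response to Fgf21, was at 16.8, 15.6 and 18.1 CPM in brown fat against 57.5, 64.9 and 61.6 CPM in white fat (log2 change -1.80 ± 0.09 (SE), adjusted p = 1.7e-05).

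Membrane lipids showed the same direction. Of 7 kept genes of caveolae, the membrane pits abundant in white adipocytes, 6 were lower in brown fat, among them Cav1 at 1043, 871 and 1248 CPM in brown fat against 2863, 3049.9 and 2832 CPM in white fat and Cavin1 at 492, 328 and 599 CPM in brown fat against 1718, 1715 and 1703 CPM in white fat; Cav2 and Cavin2 changed by -1.87 ± 0.14 and -1.48 ± 0.13. Of 22 kept genes of ceramide and sphingomyelin metabolism, 14 were lower and none was higher, with a median of -0.55 with nuclear CPM. Leaving out each library in turn gave 10 to 12 lower. Of all genes, 27.0% were lower. Cers4, a ceramide synthase for long acyl chains, was at 13.8, 9.72 and 17.5 CPM in brown fat against 106, 83.5 and 83.2 CPM in white fat (log2 change -2.67 ± 0.21 (SE), adjusted p = 9.7e-05). Cers5 and Kdsr, further steps of the same pathway, changed by -1.40 ± 0.15 and -0.88 ± 0.09. Kdsr did not pass without any 1 library other than brown replicate 1. Of 17 genes of cholesterol synthesis, 12 were lower (10 to 13 when each library in turn was left out) and none higher. Among the lower ones were Mvk (-1.58 ± 0.15), Pmvk (-0.91 ± 0.08, not without white replicate 1 or 2), Lss (-1.44 ± 0.10) and Sc5d (-1.53 ± 0.14). Insig1, which holds this pathway in check, was lower as well (129.5, 131 and 154 CPM in brown fat against 483, 459.9 and 463 CPM in white fat).

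Genes of the extracellular matrix were lower in brown fat. Of 26 matrix genes 22 were lower and none higher, and of 25 kept collagens 18 were lower and 1 was higher, with medians in nuclear CPM of -1.45 and -1.57. Leaving out each library in turn gave 18 to 23 lower matrix genes and 12 to 18 lower collagens. Of all genes, 27.0% were lower. The collagens together came to 3256, 1998 and 5204 CPM in brown fat and 14073, 14836 and 15813 CPM in white fat. Brown replicate 3 had the highest and replicate 2 the lowest sum, and no brown sum reached a white one. Lox, which crosslinks collagen, was at 51.9, 45.1 and 74.2 CPM in brown fat against 334, 362 and 377 CPM in white fat (log2 change -2.66 ± 0.18 (SE), adjusted p = 5e-05). Col4a1 and Col4a2, the basement membrane chains made by adipocytes and vessels, changed by -1.90 ± 0.20 and -1.89 ± 0.20, and Thbs1 and Postn by -2.29 ± 0.19 and -1.92 ± 0.17. The collagen that went the other way was Col27a1, at 64, 68.2 and 64.7 CPM in brown fat against 4.24, 5.49 and 6.24 CPM in white fat (log2 change 3.41 ± 0.13 (SE), adjusted p = 7.7e-06).

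Summed markers of several other cell types were lower too in CPM as deposited, which the mitochondrially encoded share lowers in brown fat. The sums were not rescaled to nuclear reads. Brown replicate 2, with the highest such share (35.8%), had the lowest sum of its group in several lists. These were the fibroblast, endothelial, macrophage, lipid-associated macrophage, T and NK cell, B cell and antigen presentation lists. Fibroblast and progenitor markers summed to 2789.9, 1121 and 2654 CPM in brown and 12036, 11854 and 13374 CPM in white fat. Of these, 10 of 17 were lower, against 27.0% of all genes, including Cd34 (-1.52 ± 0.20), Cd55 (-2.69 ± 0.28) and Dpp4, a marker of early progenitors (-1.80 ± 0.27). Macrophage markers summed to 700.2, 239.7 and 906 CPM in brown and 1897, 1569 and 1408 CPM in white fat. Of these, 5 of 14 were lower, beside 27.0% of all genes, so the count is not read as a result about macrophages. The count was 9 without brown replicate 3, 3 without brown replicate 1 or white replicate 3, and 2 without white replicate 1 or 2. Cd163, of resident macrophages, was at 3.39, 3.39 and 4.56 CPM in brown fat against 17.8, 31.8 and 24.4 CPM in white fat. Markers of lipid-associated macrophages, which gather in obese fat, summed to 2172, 1523 and 2772 CPM in brown and 5341, 5832 and 5486 CPM in white fat. Among them, 5 of 12 were lower, beside the same 27.0% of all genes. The count was 11 without brown replicate 3, 2 without brown replicate 1 or white replicate 1 or 3, and 1 without white replicate 2. Acp5 and Ctsd, lysosomal enzymes of that list, changed by -1.49 ± 0.18 and -1.20 ± 0.16 (the latter did not pass without white replicate 2).

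B cell markers summed to 178, 102 and 300.4 CPM in brown and 1302, 1329.9 and 1467 CPM in white fat, with 2 of 9 lower, below the 27.0% of all genes (6 without white replicate 2, 1 without brown replicate 1 or 2). Ighm, the heavy chain of IgM, was at 157, 73 and 252 CPM in brown fat against 1211, 1214 and 1074 CPM in white fat. It made up most of each B cell sum, so that sum mainly shows this 1 gene. T and NK cell markers summed to 20.9, 7.02 and 22.6 CPM in brown and 53.8, 44.5 and 196 CPM in white fat, and 4 of 14 were lower, near the share of all genes (2 without brown replicate 2). Antigen presentation genes gave 1 of 7 lower, below the 27.0% of all genes. The count was 6 without brown replicate 3 and 0 without brown replicate 1 or any white library. Endothelial markers summed to 1374, 1337 and 1645 CPM in brown and 2348, 2326 and 2295 CPM in white fat, and 4 of 17 were lower, near the 27.0% of all genes. Their median log2 change was -0.76 as deposited, -0.32 with nuclear CPM and -0.11 with nuclear CPM and TMM. Cldn5 and the lymphatic marker Lyve1 changed by -1.37 ± 0.17 and -1.74 ± 0.23. Mural cell markers gave 2 higher and 2 lower of 10, beside 10.4% and 27.0% of all genes, with brown replicate 1 the lowest sum. The higher count fell to 1 without brown replicate 1 or 3 or white replicate 1 or 3, and the lower count to 1 without white replicate 2 or 3. Summed red blood cell markers overlapped between the groups, and none of the 5 kept passed under all 3 scalings. Of 12 proliferation genes, 9 were lower, beside 27.0% of all genes. The count was 11 without brown replicate 3, 5 without brown replicate 1, 2 without white replicate 1 and 3 without white replicate 3. It is therefore not read as a result about proliferation. Cdk1 was at 4.19, 1.94 and 6.08 CPM in brown fat against 18, 16.8 and 13.2 CPM in white fat. The part of these cells in the matrix and adipokine results was not tested.

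**Figure D4:**
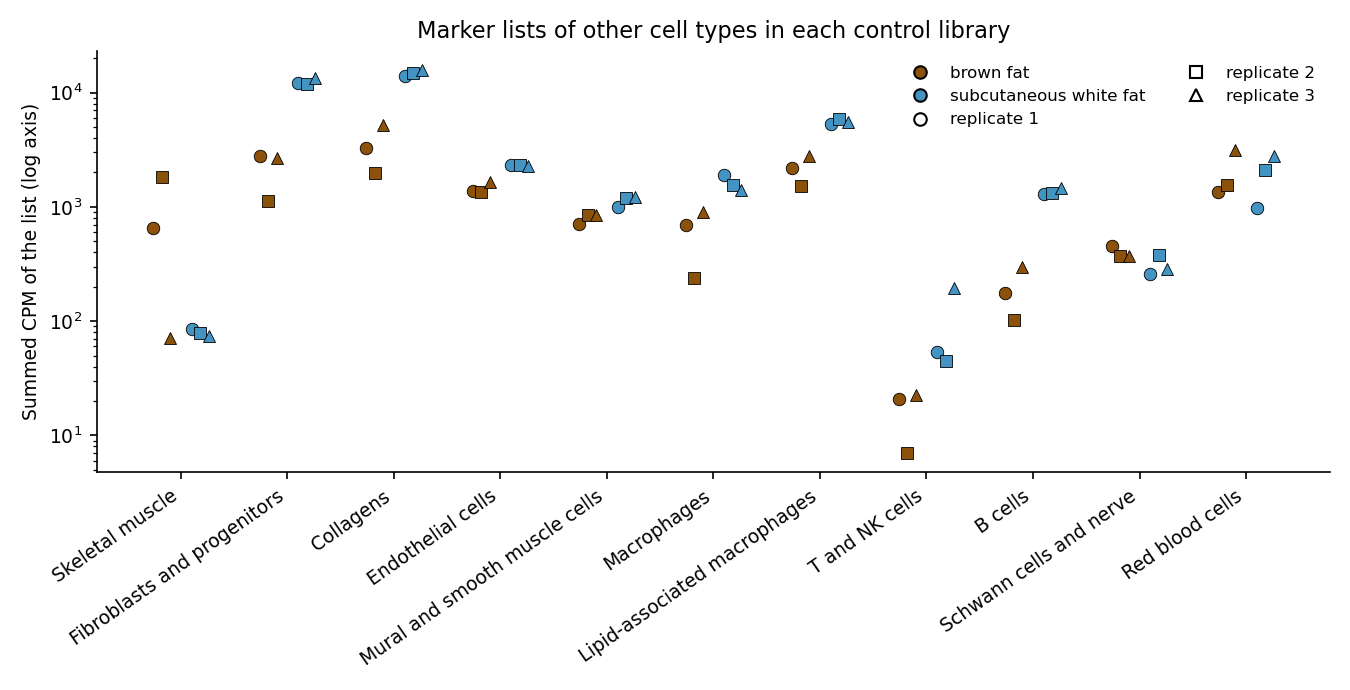
Summed CPM as deposited (log axis) of the marker lists of other cell types in each control library, brown fat in brown and white fat in blue, with the replicate shown by the symbol. The skeletal muscle sum is high in brown replicates 1 and 2 only, and fibroblast, collagen, macrophage and B cell sums are higher in every white library than in every brown one. Most of each B cell sum is Ighm.

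Marks of the nervous supply were mixed. Of 9 kept genes of Schwann cells and nerve, S100b was higher and Pmp22 lower, the latter not without any white library. Among all genes, 10.4% were higher and 27.0% lower. S100b, a secreted protein that brown adipocytes also make and that attracts sympathetic nerves, was at 265, 268 and 239 CPM in brown fat against 14.4, 24.9 and 20.1 CPM in white fat (log2 change 3.67 ± 0.18 (SE), adjusted p = 2.3e-05), and Pmp22, of myelin, at 86.7, 44.2 and 85.8 CPM in brown fat against 186, 223 and 182 CPM in white fat.

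Genes of body position differed between the depots. Hox genes are ordered by paralogue number along each cluster, the higher numbers being used further back in the body, and the main brown fat depot of the mouse lies further forward than its inguinal subcutaneous depot; the labels do not name the pads sampled. Of the Hox genes kept, 23 are described here. Those with numbers 8 to 10, a grouping made after the values were seen, include 5 (Hoxa9, Hoxa10, Hoxb9, Hoxc9 and Hoxc10) that were under 1 CPM in every brown library. These passed the filter only through white fat, which fixed their direction, so no count or median over the kept genes is given.

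Hoxa10 had no read in the 3 brown libraries and 16.2, 16.2 and 17.3 CPM in white fat, which with a floor of 3 reads over the group made it at least 311-fold lower in brown fat. Hoxc9 likewise had no brown read, against 6.87, 6.97 and 5.81 CPM, and was at least 123-fold lower. Hoxc10 had 1 read over the brown libraries and 1288 over the white ones, a ratio of 1419 with a 95% exact interval of 254 to 56085 that covers counting error only. Hoxa9 was at 0.141, 0.188 and 0.157 CPM in brown fat against 11.2, 12.9 and 9.42 CPM in white fat (log2 change -3.38 ± 0.15 (SE), adjusted p = 1.3e-05). Hoxc8 was at 12.6, 3.51 and 7.81 CPM in brown fat against 60.3, 77.4 and 71 CPM in white fat (log2 change -3.11 ± 0.39 (SE), adjusted p = 0.00069). In the other direction, Hoxa5 was at 14.4, 15.6 and 13.7 CPM in brown fat against 2.26, 1.78 and 1.96 CPM in white fat (log2 change 2.37 ± 0.13 (SE), adjusted p = 2.2e-05). Hoxa4 was at 7.91, 10 and 7.97 CPM in brown fat against 2.68, 1.85 and 2.02 CPM in white fat, and Hoxc4 was at 9.55, 7.71 and 10.5 CPM in brown fat against 2.97, 3.56 and 2.94 CPM in white fat. Their neighbours were closer together: Hoxa7, for example, was at 14.1, 8.4 and 10.6 CPM in brown fat against 14.4, 16.8 and 16.5 CPM in white fat and Hoxc5 at 33.1, 25.8 and 32 CPM in brown fat against 21.9, 27.4 and 23.7 CPM in white fat, and both failed under at least 1 scaling. Hoxd8, at 6.54, 7.27 and 9.44 CPM in brown fat against 14.1, 14.1 and 15.6 CPM in white fat, and Hoxb9 (0.706, 0.564 and 0.21 CPM in brown fat against 1.08, 1.93 and 1.9 CPM in white fat) were the kept genes with numbers 8 to 10 that did not pass under all 3 scalings. The remaining Hox genes that were lower were Hoxb3 (-0.96), Hoxb5 (-1.42), Hoxb7 (-1.07), Hoxb8 (-1.25) and Hoxd9 (-1.15). Hoxb3 did not pass without replicate 2 or 3 of either depot. Hoxb7 did not pass without any 1 library other than brown replicate 3. Hoxa3 (0.15), Hoxb2 (-0.22), Hoxb4 (-0.31), Hoxb6 (-0.63), Hoxc6 (-0.73) and Hoxd4 (-0.40) passed in neither direction under all 3 scalings. Antisense genes overlap the Hox clusters, and nothing states whether reads were counted by strand.

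Other patterning factors separated the depots as well. Zic1, a zinc finger factor of dorsal tissues and a classical brown fat marker, was at 3.53, 3.2 and 7.03 CPM in brown fat and had no read in white fat, at least 78.7-fold higher with the same floor. It passed the filter only through brown fat, which fixed its direction. Shox2 was at 2.35, 1.44 and 1.1 CPM in brown fat against 20.1, 20.5 and 20.1 CPM in white fat (log2 change -3.04 ± 0.18 (SE), adjusted p = 3.1e-05). Tbx15 was at 4.8, 4.89 and 5.4 CPM in brown fat against 14.1, 16.6 and 14.4 CPM in white fat. Meox2 was at 21.4, 22.8 and 26.6 CPM in brown fat against 40.2, 47.5 and 48.7 CPM in white fat. All 3 were lower in brown fat, but Meox2 did not pass without brown replicate 1 or 3 or white replicate 2 or 3. Tbx5, a forelimb and heart factor, was higher (2.31, 4.14 and 3.04 CPM in brown fat against 1.55, 1.63 and 1.22 CPM in white fat). En1, Meox1, Eya1, Tbx18, Irx3 and Lhx8 were kept and passed in neither direction under all 3 scalings.

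**Figure D5:**
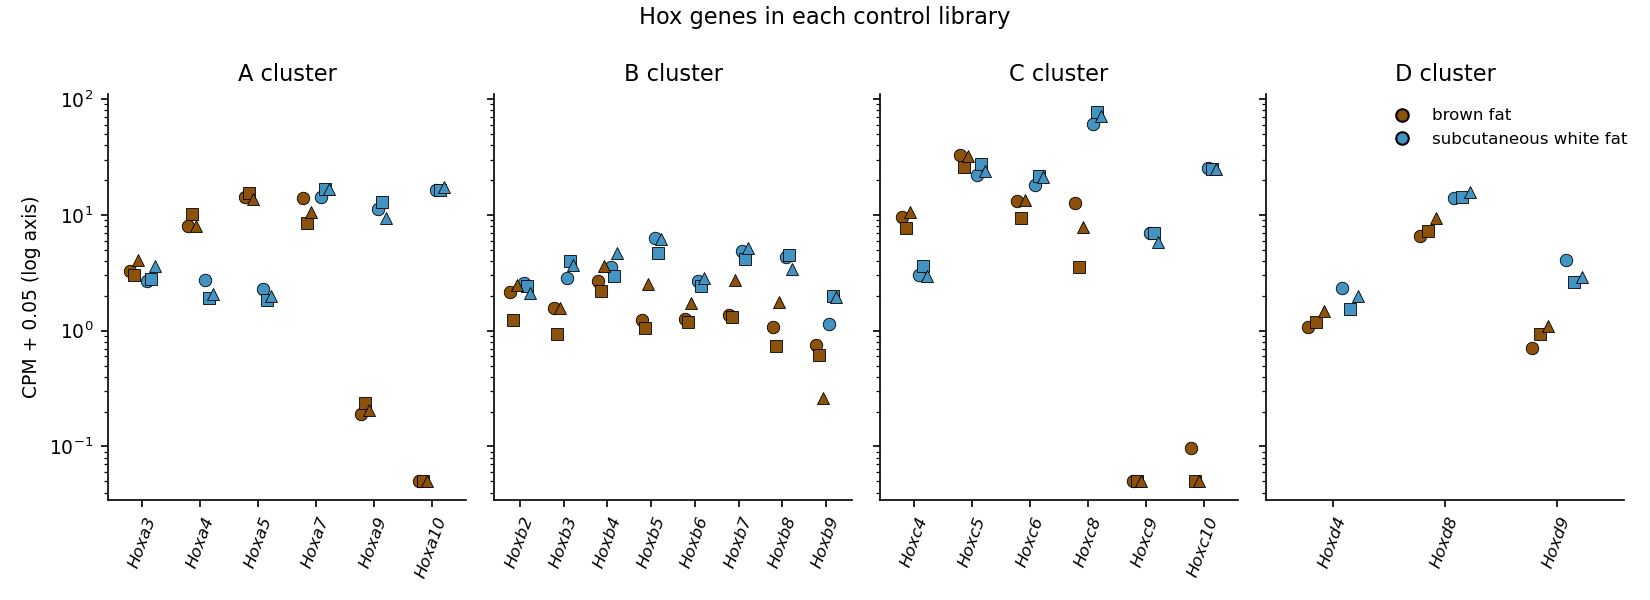
CPM + 0.05 (log axis) of 23 kept Hox genes in each control library, by cluster and in order of paralogue number, brown fat in brown and white fat in blue. Hoxa9, Hoxa10, Hoxc8, Hoxc9 and Hoxc10 are far lower in all 3 brown libraries, and Hoxa4, Hoxa5 and Hoxc4 are higher in all 3.

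Ranked by log2 change in log2(CPM + 1) among genes of at least 10 CPM whose groups did not overlap, the 15 brown fat genes with the largest values included Lgr6, Kng2, Cpn2 and Gldn, which are in none of the lists described above, and Acot11 and Pank1 of the thermogenic list. Lgr6, a receptor of the R-spondin family, was at 96, 161 and 96 CPM in brown fat against 0.188, 0.148 and 0.0612 CPM in white fat (log2 change 6.67 ± 0.21 (SE), adjusted p = 3.8e-06). Kng2, a kininogen, was at 110.0, 166 and 139 CPM in brown fat against 0.942, 0.519 and 0.245 CPM in white fat. Cpn2, a subunit of the carboxypeptidase that cleaves kinins, was at 60.3, 85.5 and 74.2 CPM in brown fat against 1.32, 0.741 and 1.1 CPM in white fat. Acot11, an acyl-CoA thioesterase first described in brown fat, was at 268, 294 and 177 CPM in brown fat against 3.39, 4.97 and 3.18 CPM in white fat. Pank1, the first enzyme of coenzyme A synthesis, was at 189.9, 301 and 205 CPM in brown fat against 6.4, 5.11 and 6.43 CPM in white fat. Gldn, a protein known from nerve nodes, was at 32.3, 45.8 and 30.5 CPM in brown fat against 0, 0.296 and 0.0612 CPM in white fat. The ranking took only genes whose groups did not overlap, so the separation of these 6 was fixed by that choice. Lgr6, Kng2 and Gldn were under 1 CPM in every white library. They passed the filter only through brown fat, which fixed their direction.

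At the white end of the same ranking, which understates the change of genes near 0 such as the Hox genes above, the first was Lipf, a lipase best known from the stomach, at 0.329, 0.314 and 2.15 CPM in brown fat against 65.3, 55.8 and 57.9 CPM in white fat (log2 change -5.10 ± 0.35 (SE), adjusted p = 8.2e-05). Ret, the receptor of GDNF family ligands, was at 2.07, 1.88 and 4.82 CPM in brown fat against 112, 126 and 107 CPM in white fat (log2 change -4.96 ± 0.27 (SE), adjusted p = 4.6e-05). Oxtr, the oxytocin receptor, was at 4.38, 3.51 and 34.2 CPM in brown fat against 393, 248 and 245 CPM in white fat. It did not pass without brown replicate 2. Mest, an imprinted gene tied to the growth of fat mass, was at 64, 18.1 and 183 CPM in brown fat against 1796, 1774 and 1940.3 CPM in white fat. Sfrp5, a secreted inhibitor of Wnt signals, was at 15.5, 3.82 and 27 CPM in brown fat against 344, 380.4 and 363 CPM in white fat. Brown replicate 3 was the highest brown library in all of these 5 genes and replicate 2 was the lowest, with replicates 1 and 2 close together in Lipf and Ret. Igfals, Crtac1, Bmp3 and Itgad were also in this ranking, each lower in brown fat by over 4 on the log2 scale (-4.37, -4.17, -4.41 and -4.39). Tmem132b and Gnal were nearly limited to white fat, at 0.0941, 0.0627 and 0.105 and 0.894, 0.314 and 1.47 CPM in brown fat against 30.5, 14.7 and 19.3 and 39.5, 24.1 and 41.6 CPM. Tmem132b was under 1 CPM in every brown library and passed the filter only through white fat, which fixed its direction.

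Lists of general cell state held genes of both directions, against 10.4% of all genes higher and 27.0% lower. Of 19 immediate early genes, which respond to handling, 1 was higher (Ier3, 7.81, 12.9 and 11 CPM in brown fat against 3.53, 3.56 and 3.67 CPM in white fat) and none lower (3 without brown replicate 3). Of 16 clock genes 2 were higher and 2 lower, among them Hlf (2.07 ± 0.16) and Rora (-1.75 ± 0.14). Of 17 stress response genes 2 were higher and 5 lower: Gdf15, a hormone released under mitochondrial stress, was at 7.34, 12.6 and 10.1 CPM in brown fat against 0.942, 1.33 and 0.796 CPM in white fat, whereas Chac1 and Sesn2, targets of the integrated stress response, changed by -1.64 ± 0.17 and -1.01 ± 0.10 (Sesn2 not without white replicate 1 or 2). Epithelial and mesothelial markers were at or below the filter, with 1 of 14 and 0 of 8 kept.

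The libraries labelled as Fgf13 knockouts, which share no library with the control comparison, were compared in the same way, 2 from brown fat and 3 from subcutaneous white fat. With nuclear CPM, 8820 of 13678 genes (64.5%) passed, 2337 higher (17.1%) and 6483 lower (47.4%). Of 1015 nuclear genes higher by at least 2-fold among the controls under all 3 scalings, 976 (96.2%) also passed as higher in the knockout libraries, and of 1592 lower ones, 1532 (96.2%) passed as lower. Ucp1 averaged 5772 and 2.11 CPM in brown and white knockout fat, Lep 248 and 5838 CPM, and Cox7a1 558 and 6.2 CPM. The muscle markers differed within those groups too, summing to 61.6 and 8736 CPM in the 2 brown and 73.5, 2911 and 3672 CPM in the 3 white knockout libraries.

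A further control set from the inducible knockout arm is labelled subcutaneous white fat as well. It differs from the white set used here in knockout arm, deposited table and depth, which cannot be told apart. Its depth was 38385989 to 48812592 reads, against 13490948 to 21241811. Between its 3 libraries and those used here, 6637 of 14018 genes (47.3%) passed with the deposited CPM, but only 567 by at least 2-fold, against 4274 of 13693 (31.2%) between the depots. With this set in place of the first, the mitochondrially encoded share differed from brown fat by 28.7 percentage points, its own share being 3.08% ± 0.27 against 5.56% ± 0.073 (SD, n = 3 each) in the first set. Its means were 3.58 CPM for Ucp1, 5.67 for Cox7a1, 4395 for Lep, 588 for Retn and 26.4 for Hoxc10, beside 4.16 ± 1.75 CPM, 3.96 ± 0.787 CPM, 4460.3 ± 204 CPM, 587 ± 79.9 CPM and 25.2 ± 0.395 CPM (SD, n = 3) in the white fat compared above. Other genes differed more between the sets: mt-Co3, a mitochondrially encoded subunit of complex IV, was at 1784 against 6618 ± 213 CPM, and Cav2 at 276 against 644 ± 21 CPM (SD, n = 3).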

How the data were processed

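Bulk RNA-seq libraries were made from 1 ug of RNA and sequenced on a HiSeq2000, per the labels' protocols. The submitters' processing notes name DESeq2 1.38.3, Salmon, MultiQC and FastQC without roles; no aligner, genome build or annotation is named in the sources used here. The tables the authors deposited are named FPKM but hold CPM: each column summed to 1000000, and at least 99.99% of values in each library used were whole multiples of 1 read within 0.01 reads, with no division by length. Symbols were taken from GENCODE M21 (GRCm38) for 92.0% of identifiers.

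Genes with at least 1 CPM in 3 of 6 columns were tested with limma 3.58.1 (R 4.3.3, eBayes with trend and robust, two-sided, no covariate) on log2(CPM + 1), with Benjamini-Hochberg adjustment over all genes and a threshold of 0.05. The planned test for counts was replaced because the values are CPM; edgeR 4.0.16 and DESeq2 1.42.0 were run on recovered whole reads as alternatives, calling 7149 and 6981 genes. In data simulated for the control comparison (13867 genes), limma recovered 79 of 100 genes changed 2-fold and 97 of 100 changed 4-fold. It also called 13 unchanged genes, and DESeq2 called 47. Both simulated depots had the white fat means apart from the changed genes. The simulation thus held no difference in mitochondrial share and did not test the rule of 3 scalings. Nuclear CPM leaves out symbols starting with mt-. Nuclear genes with at least 20% of their 31-base words in the mitochondrial genome counted as copies.

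The members and gene lists were chosen with earlier results of these data known. Genes were named by rule: the largest 15 changes in each direction, up to 4 genes a list by smallest p, isoform pairs, and Hox and patterning genes; a few others (Atp5j, Atpif1, Scd2, Ndufb2, Ndufa11 and Cycs) were named after their values were seen. Alternatives were other scalings, filters, pseudocounts, tools, the replicate block and leaving out each library. The epididymal sets were not analysed here, and a few genes are not reported here.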

Additional observations from a re-analysis of the deposited data

Results flagged for a closer look

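The difference between brown and subcutaneous white fat was compared between control libraries and libraries labelled as Fgf13 knockouts in 1 limma fit of the 4 groups. Of 13693 genes, 1 passed the test of that interaction, Acsl5, an acyl-CoA synthetase that activates long chain fatty acids; 1642 had an unadjusted p under 0.05. Acsl5 was at 96.5, 85.3 and 86.8 CPM in control brown fat and 92.4, 84.3 and 90.6 CPM in control white fat, so the depots overlapped. In the knockout libraries it was at 174 and 192 CPM in brown fat and 87.6, 80.5 and 75.0 CPM in white fat. The depot difference was larger by 1.16 on the log2 scale in the knockout libraries (adjusted p = 0.039), and by 1.19 with nuclear CPM (adjusted p = 0.022). The brown knockout group has 2 libraries, with muscle marker sums of 61.6 and 8736 CPM; Acsl5 was high in both.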

How the results depend on the processing

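The number of genes passing was 10953 with the deposited CPM and moved with the scaling. It was 7278 with nuclear CPM and TMM, 7285 with median-of-ratios scaling, 7149 with edgeR and 6981 with DESeq2, both on recovered reads. Genes higher in brown fat numbered 1424 as deposited, 2612 with nuclear CPM, 2777 without mitochondrial copies as well, 3587 with TMM on either set of genes, 3784 with median-of-ratios, 3767 with edgeR and 3593 with DESeq2. Genes lower in brown fat numbered 9529, 5546, 5019, 3721 (TMM), 3691 (nuclear CPM with TMM), 3501, 3382 and 3388 in the same order. The higher calls thus made up 13.0% of all calls as deposited, 32.0% with nuclear CPM and 52.7% with edgeR. Pseudocounts, filters, moderation and the further subcutaneous set kept the total within 1.5 times. Leaving out each library in turn gave 10063 to 11010 calls as deposited, 6561 to 8333 with nuclear CPM, 9794 to 10625 between the knockout libraries and 5174 to 6295 between the subcutaneous sets. Genes passing under all 3 scalings ranged from 1278 to 1396 higher and 2653 to 4002 lower.

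The deviations of same-numbered libraries of the depots correlated at 0.015, 0.197 and 0.020, and those of differently numbered ones at -0.204 to 0.186. With 3 libraries per depot, these values cannot show whether same-numbered libraries share an animal. With the replicate block, 10922 genes passed (1397 higher, 9525 lower), and 10030 and 6589 in the other 2 comparisons, and no named gene lost its call with the deposited values.

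The change of sign in named genes was limited to 12 of 233. The log2 change of Prdm16 turned from below 0 to 0.068, 0.12, 0.26, 0.27, 0.30, 0.30 and 0.31 and of Slc25a5 to 0.45, 0.50, 0.65, 0.65, 0.69, 0.69 and 0.69 under nuclear CPM, nuclear CPM without mitochondrial copies, TMM, nuclear CPM with TMM, median-of-ratios scaling, edgeR and DESeq2, in that order. Turned in the same way were Ckb to 0.18, 0.23, 0.38, 0.39, 0.42, 0.42 and 0.43 and Meox1 to 0.029, 0.076, 0.22, 0.23, 0.25, 0.26 and 0.27. Turned in the same way were Hoxb2 to 0.097, 0.13, 0.23, 0.24, 0.25, 0.40 and 0.41 and Hoxb4 to 0.043, 0.082, 0.20, 0.21, 0.22, 0.28 and 0.29. The log2 change of Fgf21 turned from below 0 to 0.068, 0.075, 0.090, 0.13 and 0.13 and of Plin1 to 0.13, 0.13, 0.16, 0.16 and 0.16 under the last 5 of these. Turned in the same way were Hoxa7 to 0.11, 0.12, 0.14, 0.18 and 0.19. The log2 change of En1 turned from below 0 to 0.00013, 0.054 and 0.052 and of Hoxd4 to 0.018, 0.0028 and 0.0055 under the last 3. With the further subcutaneous set, Slc25a5 was at 0.25, Ckb at 0.092 and Hoxa3, above 0 otherwise, at -0.19, and leaving out each library in turn put Slc25a5 between -0.059 and 0.0061. None of these genes was called higher or lower above. The scalings differ by construction in the total that each library is divided by, which moves all genes of a library alike. With the deposited values, Prdm16, Myl1 and Hoxa7 no longer passed when some single library was left out. Of named genes called under all 3 scalings, 1 of 110 higher (Myl1) and 14 of 97 lower lost the call without some library: Ebf1, Kdsr, Pmvk, Notch3, Mertk, Ctsd, Pmp22, Sesn2, Rpl4, Rpl39, Meox2, Hoxb3, Hoxb7 and Oxtr. Genes of few reads, such as the low Hox genes, are limited by depth, since 1 read is 0.0471 to 0.0741 CPM.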
